A study of Mus musculus with 12 samples.

Results

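Paneth cell genes were read in the proximal jejunum of mice through 8 genes: Lyz1, Pla2g2a, Mmp7, Ang4, Itln1, Sox9, Fzd5 and Nod2. They were taken by name, as the probe sets that the platform annotation pairs with exactly 1 of these symbols. This gave 9 probe sets of the 21218 that carry 1 symbol, and 8 of 18820 genes, because Itln1 has a pair of probe sets and each of the other 7 genes has 1. Of the 12 mice, 3 were TLR2 knockout (B6.129-Tlr2tm1Kir/J) given methotrexate, 3 were untreated knockout of that strain, 3 were wild type (C57BL6/J) given methotrexate and 3 were untreated wild type. Methotrexate, an antifolate that stops DNA synthesis, was injected into the peritoneum at 40 mg per kg body weight per day for 4 days to cause mucositis, injury of the gut lining. The jejunum of treated mice was collected on day 7. Of untreated mice the labels record neither a vehicle nor a day, and age and sex are not stated. The knockout is a targeted allele on a B6.129 background, TLR2 being a receptor for bacterial lipoproteins, so linked 129 sequence and loss of TLR2 cannot be told apart. Whether knockout and wild-type mice were littermates is not stated.

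Paneth cells sit at the base of the small intestinal crypts between the stem cells, and empty granules of antimicrobial proteins into the crypt lumen. They make alpha-defensins and lysozyme, are sustained by Wnt signals, and in turn give Wnt and Notch signals to the stem cells beside them. Several of the 8 genes are also used by other cells: Sox9 in crypt progenitors, Itln1 and Ang4 in goblet cells, Nod2 in myeloid cells and Mmp7 in injured epithelium.

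Values are log2 signals made by the authors with RMA, in which a difference of 1 is a doubling. Array medians lay between 4.37 and 4.56. Tlr2, the targeted gene, read 5.28 to 6.18 in methotrexate-treated knockout arrays, 4.36 to 5.02 in untreated knockout arrays, and 4.37 to 4.65 over the 6 wild-type arrays. Where its probes lie in the gene, and so whether they meet the altered stretch, is unknown, and the signal checks no label. The tissue label was borne by the enterocyte markers, a list of 14 genes whose mean was 11.4 to 11.8 in the 9 arrays outside the treated knockout. In the treated knockout that mean was 6.23 to 8.56, with all 14 genes lower than in the untreated knockout. The arrays of that group correlated at 0.916 to 0.948 with the others over all probe sets, against 0.964 to 0.990 between arrays of the other groups. Pancreatic acinar genes had a mean of 11.6 to 12.4 in 7 arrays, and of 4.05 to 5.51 in 5. The arrays with pancreatic RNA were 2 of 3 treated knockout, 2 of 3 untreated knockout, 1 of 3 treated wild type and 2 of 3 untreated wild type. A high adipocyte marker mean of 7.47 set apart 1 untreated wild-type array, replicate 1, against 4.35 to 5.40 in the other arrays.

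The 8 genes did not move as 1 group. In knockout mice given methotrexate, Pla2g2a and Mmp7 rose, Fzd5 fell, and the level of Lyz1 was within 0.03 of that in untreated knockout mice. In wild-type mice given methotrexate no member passed the test, while Lyz1, Ang4 and Itln1 read below every untreated wild-type array and Fzd5 above. After methotrexate, 5 members were higher and 1 was lower in knockout than in wild-type mice. Limma's test with Benjamini-Hochberg adjustment over all 18820 genes was used, and a member is said to rise, fall or differ where the adjusted p is under 0.05. In bulk tissue, fewer cells of a type and less RNA per cell cannot be told apart.

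**Figure D1:**
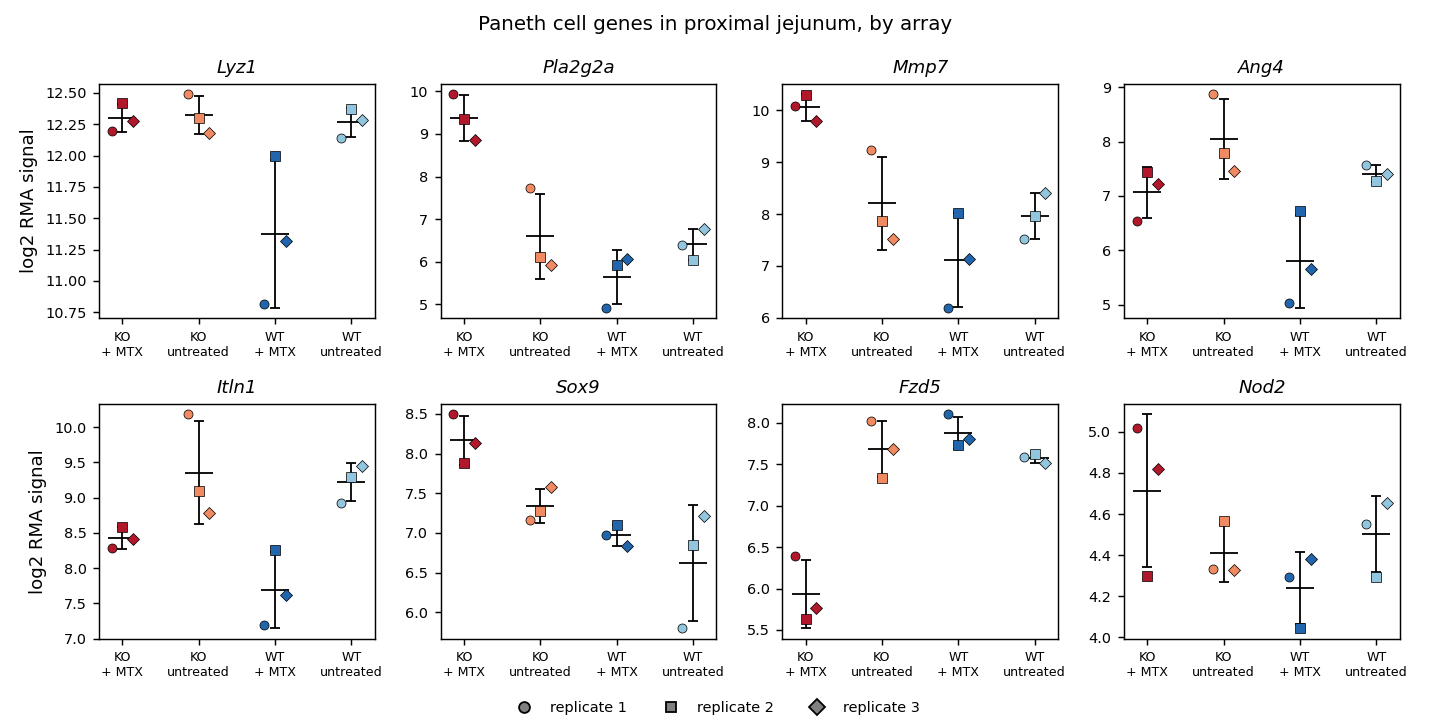
Log2 signal of each Paneth cell gene (vertical axes, each with its own scale) in the 4 groups (horizontal axis), with 1 point per array, a bar at the mean and whiskers of 1 SD (n = 3). The 3 treated knockout arrays lie above all others for Pla2g2a and Mmp7 and below all others for Fzd5, and the 3 treated wild-type arrays lie below all others for Lyz1.

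The counts behind this were 3 of 8 members called for methotrexate in knockout mice, where 34.8% of all genes were called, with 2 higher (18.8% of all genes) and 1 lower (16.0%). For methotrexate in wild-type mice limma called 0 of 8, against 0.0744% of all genes, and 3 of 8 had an unadjusted p under 0.05, against 11.7%. Between treated knockout and treated wild-type mice 6 of 8 members were called, against 36.9% of all genes, with 5 higher (20.2%) and 1 lower (16.8%). For the untreated genotypes the count was 0 of 8, against 0.0106%, and at an unadjusted p under 0.05 it was 1 of 8, against 6.19%. For the interaction, which subtracts the wild-type methotrexate effect from the knockout one, it was 3 of 8, against 23.8%. The median log2 change of the 8 genes was 0.14 in knockout mice and -0.81 in wild-type mice after methotrexate, and that of all genes was -0.02 and 0.00. The members were picked as a cell type with results of these arrays known, so these shares describe them and test nothing about Paneth cells as a whole.

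The granule proteins come first. Lyz1 encodes lysozyme P, the bacterial cell wall hydrolase of Paneth granules. It read 12.20, 12.42 and 12.28 in treated knockout arrays and 12.49, 12.30 and 12.18 in untreated knockout arrays. In treated wild-type arrays it read 10.82, 11.99 and 11.31, against 12.14, 12.37 and 12.28 in untreated wild-type arrays. The treated wild type was thus the lowest group and the most spread, without overlap with any other group, while the other 3 groups lay on top of each other. The log2 change after methotrexate was -0.03 ± 0.23 in knockout mice (95% interval -0.54 to 0.48, limma adjusted p = 0.945) and -0.89 ± 0.23 in wild-type mice (limma adjusted p = 0.192). Log2 changes carry the standard error of the limma fit. Lyz1 was 0.92 ± 0.23 higher in treated knockout than in treated wild-type mice (limma adjusted p = 0.00796), and the interaction of 0.86 ± 0.33 missed the threshold (limma adjusted p = 0.0835). When replicate 2, the highest treated wild-type array, was left out, the interaction was 1.17 and passed (limma adjusted p = 0.00294). The interaction passed in 2 of 22 other settings. Leaving out single arrays gave 0.58 to 1.17, with limma adjusted p-values up to 0.164.

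Lyz1 has a close neighbour and copy, Lyz2, the lysozyme of macrophages and other myeloid cells. Both genes lie on chromosome 10, and their promoter windows, 250 bases before to 50 bases after the start in RefSeq's GRCm38.p6, are shown because they are so alike next to the start. In the best global alignment 249 of 300 bases were identical, 99 of them in the last 100 bases of the Lyz1 window. Capitals mark the bases with no identical partner in the other window. Whether the probes of one gene also read RNA of the other is not known here.
Lyz1, chr10:117292819-117293118, minus strand: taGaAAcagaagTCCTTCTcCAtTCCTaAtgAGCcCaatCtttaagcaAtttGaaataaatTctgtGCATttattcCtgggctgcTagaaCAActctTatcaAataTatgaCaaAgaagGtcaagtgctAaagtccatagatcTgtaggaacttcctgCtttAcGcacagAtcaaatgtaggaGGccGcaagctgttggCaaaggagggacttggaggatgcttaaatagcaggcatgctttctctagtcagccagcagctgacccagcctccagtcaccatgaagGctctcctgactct
Lyz2, chr10:117282223-117282522, minus strand: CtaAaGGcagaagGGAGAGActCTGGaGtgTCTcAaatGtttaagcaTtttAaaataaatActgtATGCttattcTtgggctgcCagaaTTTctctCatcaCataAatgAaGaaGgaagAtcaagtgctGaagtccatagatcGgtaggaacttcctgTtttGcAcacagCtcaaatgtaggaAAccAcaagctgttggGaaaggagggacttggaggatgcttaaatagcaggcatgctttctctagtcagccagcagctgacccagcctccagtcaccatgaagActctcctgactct

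Lyz2 read 10.61, 11.05 and 11.08 in treated knockout arrays and 9.80, 10.05 and 10.02 in untreated knockout arrays. It read 8.92, 9.56 and 8.74 in treated wild-type arrays and 10.09, 9.98 and 10.08 in untreated wild-type arrays. Lyz2 rose in knockout mice, by 0.96 ± 0.20 (limma adjusted p = 0.00273), and its interaction of 1.93 ± 0.28 passed (limma adjusted p = 4e-04). In wild-type mice its change of -0.98 ± 0.20 was near that of Lyz1 and did not pass (limma adjusted p = 0.113). In knockout mice after methotrexate 18.8% of all genes rose and 16.0% fell. Of the 18 macrophage and monocyte markers, a list that includes Lyz2, 15 rose and 0 fell there. Their mean was 7.55 to 7.70 in treated knockout arrays and 5.80 to 6.05 in untreated knockout arrays. It was 5.25 to 5.89 in treated wild-type arrays and 6.01 to 6.12 in untreated wild-type arrays. The macrophage mean of the treated wild type thus lay wholly below that of the untreated wild type, as the Lyz1 signal did. Limma called 0 of the 18 markers for methotrexate in wild-type mice, against 0.0744% of all genes. The part of these cells in the signals of Lyz1 and of the other granule genes was not tested.

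**Figure D2:**
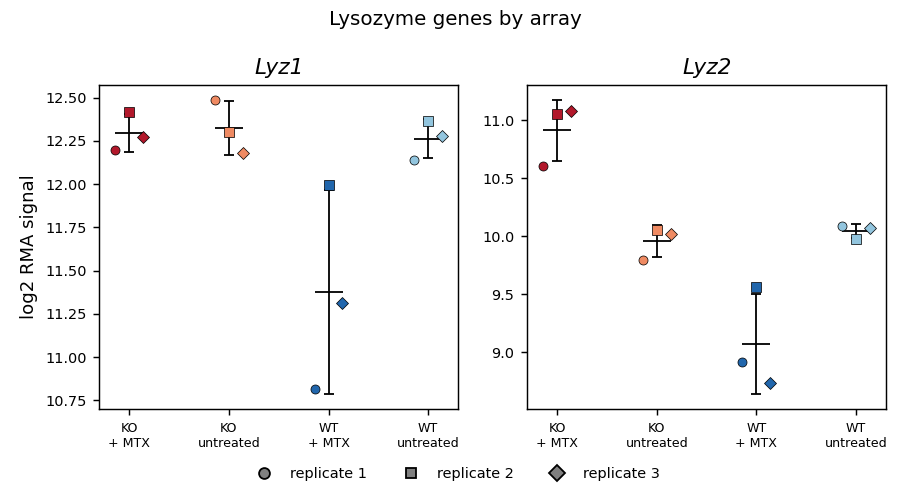
Log2 signal of the lysozyme genes Lyz1 and Lyz2 (vertical axes, each with its own scale) in the 4 groups, with 1 point per array, a bar at the mean and whiskers of 1 SD (n = 3). Both have their lowest arrays in the treated wild type, and Lyz2 alone has its highest arrays in the treated knockout.

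Ang4 encodes angiogenin 4, a ribonuclease that kills bacteria. It read 6.54, 7.44 and 7.23 in treated knockout arrays and 8.87, 7.79 and 7.46 in untreated knockout arrays. It read 5.02, 6.72 and 5.66 in treated wild-type arrays and 7.57, 7.27 and 7.40 in untreated wild-type arrays. In both genotypes the treated arrays lay below the untreated ones, by the narrowest of margins in knockout mice. Neither change passed: -0.97 ± 0.43 in knockout mice (limma adjusted p = 0.111) and -1.61 ± 0.43 in wild-type mice (limma adjusted p = 0.206). Treated knockout mice were higher than treated wild-type mice by 1.27 ± 0.43 (limma adjusted p = 0.0394), with overlapping arrays. That call was lost in 12 of 23 other settings, among them 8 of the 12 that leave out 1 array, with adjusted p-values up to 0.162 without replicate 1 of the treated wild type. Of the sister angiogenin genes, Ang2 and Ang6 were measured and stayed between 2.74 and 3.43 on all 12 arrays.

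Itln1 encodes intelectin 1, a lectin that binds microbial sugars, and the number of intelectin genes differs between mouse strains. Its brighter probe set read 8.28, 8.59 and 8.42 in treated knockout arrays and 10.18, 9.10 and 8.78 in untreated knockout arrays. In treated wild-type arrays it read 7.19, 8.26 and 7.61, against 8.93, 9.29 and 9.45 in untreated wild-type arrays. As with Ang4, the treated arrays lay below the untreated ones in both genotypes. The change was -0.92 ± 0.34 in knockout mice (limma adjusted p = 0.0559) and -1.54 ± 0.34 in wild-type mice (limma adjusted p = 0.141), and the interaction of 0.61 ± 0.48 did not pass (limma adjusted p = 0.440). The dimmer probe set gave -0.70 ± 0.27 and -0.85 ± 0.27 for the same changes, in the same direction. In wild-type mice 3 of 8 members, Lyz1, Ang4 and Itln1, had treated arrays wholly below the untreated ones, a pattern seen in 9.18% of all genes. Fzd5 went the other way, with treated arrays wholly above the untreated ones, though its change did not pass. The share of all genes with that pattern is not given here. Nor is the share with treated arrays wholly below the untreated ones in knockout mice. These separations of Fzd5, and of Ang4 and Itln1 in knockout mice, are therefore descriptions only.

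The alpha-defensins, the main antimicrobial peptides of Paneth granules, can be read only as a family, since 15 of their 18 probe sets are annotated to several genes. Of the 18, 2 repeat the values of another, which leaves 16 with values of their own, and a probe set annotated to several genes cannot tell them apart. Their mean was 9.70, 10.10 and 10.01 in treated knockout arrays and 10.65, 9.98 and 9.92 in untreated knockout arrays. It was 8.81, 9.49 and 9.22 in treated wild-type arrays and 9.81, 9.93 and 9.94 in untreated wild-type arrays. The treated wild type was again below every other array, as for Lyz1. When all 35556 probe sets were fitted, 12 of the 18 were higher in treated knockout than in treated wild-type mice and 0 were lower, where 24.5% of all probe sets were called and 12.7% were higher. Of the 16 with values of their own, 10 were higher. After methotrexate the median change was -0.20 in knockout mice, with 0 of 18 called by limma (23.5% of all probe sets called). At an unadjusted p under 0.05 the count was 2 of 18, against 33.5%. In wild-type mice the median was -0.72, with 0 of 18 called (0.0169% of all called). At an unadjusted p under 0.05 it was 17 of 18, against 10.8%. All 18 changes were negative in both genotypes. In the interaction 17 of 18 were positive and limma called 0 (14.7% of all called), with 4 at an unadjusted p under 0.05, where 8899 of all 35556 probe sets were. Between untreated genotypes limma called 0 of 18 (0.00281% of all called), with 1 at an unadjusted p under 0.05, against 7.20%.

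**Figure D3:**
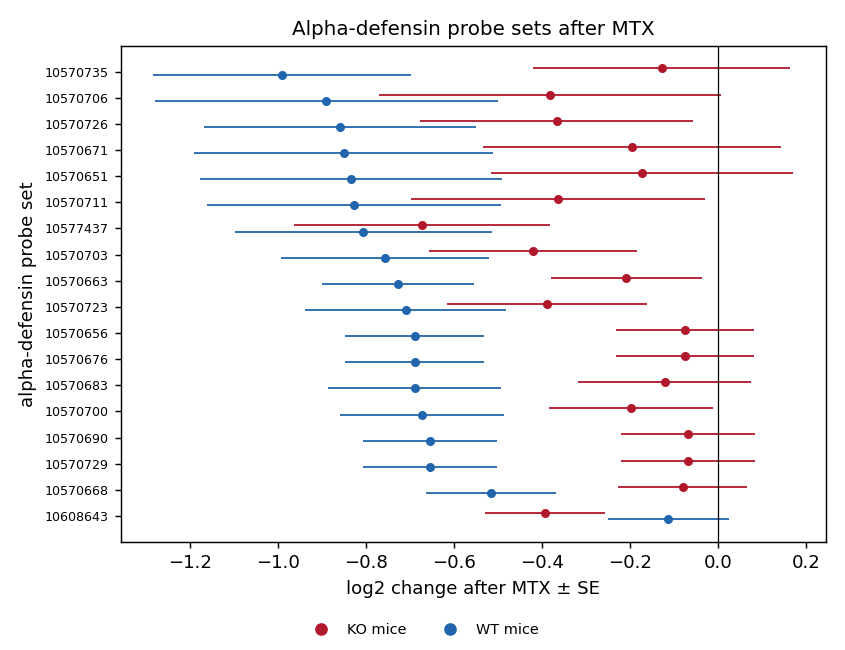
Log2 change after methotrexate (horizontal axis, ± SE from limma) of each of the 18 alpha-defensin probe sets (vertical axis) in knockout and wild-type mice. All points lie below 0, and for 17 of 18 probe sets the wild-type change is the more negative.

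Of a list of 33 genes of alpha-defensins and other secreted Paneth products, 10 were read under 1 symbol, most defensins being left out for the reason above. Among these 10, Defa24 and Defa31 were already counted with the alpha-defensin probe sets, so their values are not separate results. Between treated genotypes 4 of the 10 were higher in knockout mice and 0 lower: the chemokine gene Ccl6 (2.20 ± 0.44), Habp2 (1.58 ± 0.40), the alpha-defensin gene Defa24 (1.08 ± 0.29) and the lectin gene Reg4 (0.94 ± 0.27). Their adjusted p-values in limma lay from 0.00178 to 0.0158. Of all genes 20.2% were higher and 16.8% lower in that comparison. Ccl6 is also made by myeloid cells, whose markers were higher in the same arrays. Habp2 read 7.13 and 7.12 in treated knockout arrays with pancreatic RNA and 6.40 without it. In treated wild-type arrays it read 6.15 with pancreatic RNA, and 4.65 and 5.10 without. Untreated wild-type arrays read 6.90 and 7.14 with it and 5.76 without, and untreated knockout arrays 7.35 and 7.57 with it and 7.53 without. The part of pancreatic RNA in the Habp2 value was not tested. For methotrexate in knockout mice Defa31, at -0.39 ± 0.14, was the 1 of the 10 called in the fit over genes (limma adjusted p = 0.0417). That call was lost for the same probe set in the fit over all probe sets (limma adjusted p = 0.0608). The Defa31 probe set was dim, at 4.55 to 5.42 over all arrays, near the array medians of 4.37 to 4.56. In wild-type mice 0 of the 10 were called, against 0.0744% of all genes.

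Pla2g2a, a secreted phospholipase that breaks bacterial membranes, showed the largest rise among the members. It read 9.93, 9.34 and 8.85 in treated knockout arrays and 7.74, 6.12 and 5.92 in untreated knockout arrays. It read 4.92, 5.93 and 6.07 in treated wild-type arrays and 6.40, 6.05 and 6.78 in untreated wild-type arrays. All 3 treated knockout arrays were above the other 9, and the wild-type groups overlapped. The rise in knockout mice was 2.78 ± 0.47, or 6.87-fold (limma adjusted p = 0.000721), against -0.77 ± 0.47 in wild-type mice (limma adjusted p = 0.525). The interaction was 3.55 ± 0.67 (limma adjusted p = 0.00229), and treated knockout mice were 13.3-fold above treated wild-type mice (limma adjusted p = 6.83e-05). C57BL/6 mice carry a natural frameshift in this gene and lack its active enzyme, and RefSeq's C57BL/6J annotation lists it as a transcribed pseudogene. The values are therefore RNA levels of a gene that is broken in the wild-type strain, and they say nothing of the enzyme. Pla2g2f, a related phospholipase gene, read 8.41, 6.88 and 6.43 in treated knockout arrays and 5.26, 4.72 and 4.29 in untreated knockout arrays. It also rose in knockout mice, by 2.48 ± 0.43 (limma adjusted p = 0.000776), with a change of -0.03 ± 0.43 in wild-type mice. The related gene Pla2g5 did not pass in knockout mice (0.998 ± 0.60, limma adjusted p = 0.235). In the same treated knockout arrays 5 of 12 neutrophil markers rose, where 18.8% of all genes rose. The mean of the neutrophil markers was 6.13, 4.23 and 4.36 there, highest in replicate 1, against 3.39 to 3.47 in untreated knockout arrays. The part of the neutrophil markers, like that of the macrophage markers, was not tested.

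Mmp7 encodes matrilysin, the metalloproteinase that cuts pro-alpha-defensins into active peptides in mouse Paneth cells. It read 10.08, 10.30 and 9.79 in treated knockout arrays and 9.23, 7.87 and 7.52 in untreated knockout arrays. It read 6.19, 8.01 and 7.13 in treated wild-type arrays and 7.52, 7.96 and 8.41 in untreated wild-type arrays. The treated knockout arrays were the highest, while 1 untreated knockout array stood well above the other 2. Mmp7 rose by 1.85 ± 0.48 in knockout mice (limma adjusted p = 0.0112) and the wild-type difference was -0.85 ± 0.48 (limma adjusted p = 0.501). Without replicate 3 of the untreated knockout the rise was 1.51 and its call was lost (limma adjusted p = 0.0503). The interaction was 2.70 ± 0.69 (limma adjusted p = 0.0132), and treated knockout mice were 2.95 ± 0.48 above treated wild-type mice (limma adjusted p = 0.000493). The median change of the defensin probe sets, whose peptides Mmp7 cuts, was -0.20 in the same mice. Among arrays with pancreatic RNA the knockout change of Mmp7 was 2.35 (2 against 2 arrays), and among those without it 0.85 (1 against 1).

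The promoter of Mmp7 is shown with that of Ang4 because both hold an AP-1 motif, TGANTCA, the element bound by the Fos and Jun factors of injury responses. Promoter windows of 300 bases were listed for 6 of the 8 members (7 windows, Mmp7 having a pair), without Pla2g2a and Sox9. On either strand, TGANTCA was found in windows of Ang4 and Mmp7 alone among these, and in 7.81% of all 32851 windows. It begins 63 bases before the start in Mmp7 and 122 bases before it in Ang4. The TCF/LEF motifs of Wnt signalling, CTTTGAA or CTTTGAT, were found in 8.65% of all windows and, among members, in Mmp7, whose windows overlap and share 1 match. The TATA box TATAAA was found in 13.6% of all windows and, among members, in 1 Mmp7 window. Capitals mark every match to these motifs, none of which overlap in these windows.
Mmp7, chr9:7691840-7692139, plus strand: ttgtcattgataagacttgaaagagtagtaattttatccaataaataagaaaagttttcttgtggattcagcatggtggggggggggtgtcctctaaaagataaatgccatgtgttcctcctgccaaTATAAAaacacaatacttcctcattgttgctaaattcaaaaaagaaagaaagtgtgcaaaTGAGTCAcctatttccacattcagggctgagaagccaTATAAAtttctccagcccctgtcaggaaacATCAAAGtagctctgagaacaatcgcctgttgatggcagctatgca
Ang4, chr14:51773541-51773840, minus strand: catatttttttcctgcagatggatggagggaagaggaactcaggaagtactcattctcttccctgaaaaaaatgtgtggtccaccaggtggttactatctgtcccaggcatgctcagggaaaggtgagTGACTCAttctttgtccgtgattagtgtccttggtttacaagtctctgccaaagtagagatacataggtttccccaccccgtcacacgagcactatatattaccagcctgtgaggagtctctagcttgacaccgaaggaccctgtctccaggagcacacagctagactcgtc

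A match of letters is a description and does not show that a factor binds. Of these genes Mmp7 rose in knockout mice after methotrexate, while the Ang4 difference of -0.97 did not pass.

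Sox9, a transcription factor of crypt cells that Paneth cells need to form, read 8.49, 7.88 and 8.14 in treated knockout arrays and 7.16, 7.28 and 7.57 in untreated knockout arrays. It read 6.97, 7.10 and 6.84 in treated wild-type arrays and 5.80, 6.85 and 7.21 in untreated wild-type arrays. The treated knockout arrays were the highest of all, and the low value of 5.80 belongs to the array with the high adipocyte markers. The change in knockout mice was 0.83 ± 0.30 and lay on the threshold (limma adjusted p = 0.0503), passing in 9 of 23 other settings. Treated knockout mice were above treated wild-type mice by 1.20 ± 0.30 (limma adjusted p = 0.00756). In wild-type mice the change was 0.35 ± 0.30 (limma adjusted p = 0.640), and it was -0.060 without that array. The interaction of 0.48 ± 0.42 did not pass (limma adjusted p = 0.499), and without the same array it was 0.89 and passed (limma adjusted p = 0.0346). This was the 1 setting of 22 others in which the interaction passed. Leaving out single arrays gave 0.19 to 0.89, with limma adjusted p-values up to 0.799.

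Fzd5, the Frizzled receptor through which Wnt signals mature Paneth cells in mice, moved in the other direction from Pla2g2a and Mmp7. It read 6.39, 5.63 and 5.77 in treated knockout arrays and 8.02, 7.34 and 7.69 in untreated knockout arrays. It read 8.10, 7.73 and 7.80 in treated wild-type arrays and 7.59, 7.62 and 7.51 in untreated wild-type arrays. The treated knockout arrays lay below all 9 others, and the treated wild-type arrays lay above the untreated wild-type ones. Fzd5 fell by 1.75 ± 0.21 in knockout mice (limma adjusted p = 5.5e-05), against a change of 0.31 ± 0.21 in wild-type mice (limma adjusted p = 0.563). The interaction was -2.05 ± 0.30 (limma adjusted p = 0.000398), and treated knockout mice were 1.95 ± 0.21 lower than treated wild-type mice, a log2 difference of -1.95 (limma adjusted p = 2.01e-05). Its change was -1.81 among arrays with pancreatic RNA (2 against 2) and -1.62 among those without (1 against 1). The 14 enterocyte markers fell in the same arrays, and the part of fewer epithelial cells in the Fzd5 value was not tested.

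Among 18 other genes of Wnt reception, 6 rose and 2 fell in knockout mice after methotrexate, where 18.8% of all genes rose and 16.0% fell, with a median of 0.25. Fzd1 (1.94 ± 0.16), Fzd6 (0.82 ± 0.14) and the Wnt receptors Ror1 (2.40 ± 0.25) and Ror2 (1.498 ± 0.14) rose, the opposite direction to Fzd5. Of 12 Wnt target genes of the crypt 5 rose and 3 fell, led by the adhesion gene Cd44 (2.10 ± 0.19), Ccnd1 (1.80 ± 0.17) and Ephb3 (1.30 ± 0.19). Ephb3 is the receptor that keeps Paneth cells at the crypt base. It read 7.68, 6.94 and 7.03 in treated knockout arrays and 5.84, 5.94 and 5.98 in untreated knockout arrays. In wild-type mice 0 genes of either list were called, against 0.0744% of all genes. In the same treated knockout arrays all 12 fibroblast and matrix markers rose, and their part in the Wnt genes was not tested. Their mean was 9.53 to 9.59 there and 7.04 to 7.32 in untreated knockout arrays.

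Nod2, the sensor of bacterial muramyl dipeptide in Paneth and myeloid cells, moved little. It read 5.02, 4.30 and 4.82 in treated knockout arrays and 4.33, 4.57 and 4.33 in untreated knockout arrays, and 4.30, 4.05 and 4.38 in treated wild-type arrays and 4.55, 4.30 and 4.66 in untreated wild-type arrays. These values lie near the array medians, the groups overlapped, and no contrast passed in the fit of all 12 arrays without a block. The change in knockout mice was 0.30 ± 0.18 (95% interval -0.09 to 0.70, limma adjusted p = 0.229). Treated knockout against treated wild-type mice gave 0.47 ± 0.18 (limma adjusted p = 0.0605). This difference passed in 3 other settings: with replicate number as a block (limma adjusted p = 0.0483), with pancreatic RNA as a block (limma adjusted p = 0.0333), and without replicate 2 of the treated knockout (limma adjusted p = 0.00585). Leaving out that last array also let the change in knockout mice pass (0.51, limma adjusted p = 0.0275), and the interaction with it (limma adjusted p = 0.0214). Of 18 genes of NOD2 signalling 4 rose and 5 fell in knockout mice after methotrexate, where 18.8% of all genes rose and 16.0% fell. In wild-type mice 0 were called, against 0.0744% of all genes. Slc15a1, the gut peptide transporter that carries muramyl dipeptide into cells, fell by 5.57 ± 0.55 (limma adjusted p = 1.21e-05). All 14 enterocyte markers fell in the same arrays, with a median of -3.39, and their part in the Slc15a1 value was not tested. The adaptor gene Card9 rose by 0.62 ± 0.13, Ikbkb by 0.60 ± 0.12 and Birc3 by 0.67 ± 0.14.

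Genes of Paneth cell fate, positioning and niche signals were higher in 2 of 18 cases and lower in 5 for methotrexate in knockout mice, a share called close to the 34.8% of all genes. Besides Ephb3, the rise was that of Csf1r (1.33 ± 0.24), a receptor that is also a macrophage marker. The falls with the smallest p were those of the epithelial factor Hnf4a (-1.44 ± 0.21) and the ephrin gene Efnb1 (-0.91 ± 0.17). Of 16 genes of autophagy and secretion in Paneth cells 3 rose and 2 fell, again close to the share of all genes, among them the kinase gene Lrrk2 (2.13 ± 0.24), Atg7 (0.52 ± 0.14) and Atg5 (-0.41 ± 0.11). Slc30a2, a zinc transporter of secretory granules, read 3.22, 5.62 and 6.75 in treated knockout arrays and averaged 7.82 ± 0.162 in untreated knockout arrays (SD, n = 3). It fell by 2.63 ± 0.64 (limma adjusted p = 0.00738), with a wide spread among the treated mice. In those treated knockout arrays the enterocyte marker mean was 6.23 to 8.56, and 1 array lacked pancreatic RNA. The part of either in the Slc30a2 value was not tested. In wild-type mice 0 genes of the fate and autophagy lists were called, against 0.0744% of all genes.

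Setting treated knockout against treated wild-type mice, Lyz1, Pla2g2a, Mmp7, Ang4 and Sox9 were higher and Fzd5 was lower, and Itln1 (0.74 ± 0.34, limma adjusted p = 0.117) and Nod2 did not pass. Without treatment no member passed the test between the genotypes. The largest of those differences were Sox9 at 0.72 ± 0.30 (limma adjusted p = 0.786) and Ang4 at 0.63 ± 0.43 (limma adjusted p = 0.805). The other 6 lay between -0.09 and 0.24. The comparisons share arrays, so they are not independent of each other.

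**Figure D4:**
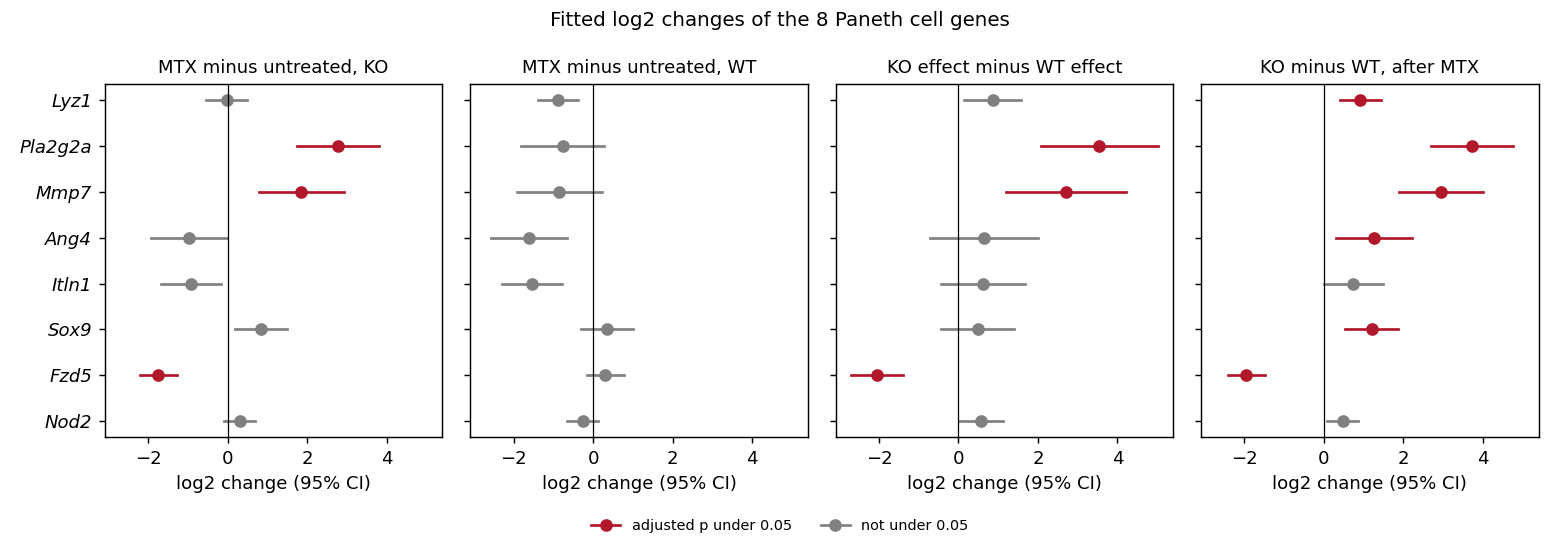
Log2 change (horizontal axis) of each Paneth cell gene (vertical axis) with its 95% interval from limma, for methotrexate in knockout mice, methotrexate in wild-type mice, the difference of these effects, and knockout minus wild type after methotrexate. Red marks an adjusted p under 0.05: 3, 0, 3 and 6 of the 8 genes.

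Within groups, single arrays led many members at once. Replicate 1 of the untreated knockout was the highest of its group for 6 of 8 members, namely Lyz1, Pla2g2a, Mmp7, Ang4, Itln1 and Fzd5. It was the 1 array of that group without pancreatic RNA. Replicate 1 of the treated wild type was the lowest of its group for 5 of 8 members and replicate 2, the 1 array of that group with pancreatic RNA, was the highest for 5 of 8. In the untreated wild type, replicate 1, the array without pancreatic RNA, was the lowest for 4 of 8 members and replicate 3 the highest for 5 of 8. In the treated knockout, replicate 1, again the array without it, was the highest for 4 of 8 and the lowest for 3 of 8. The members' order thus went with pancreatic RNA in no 1 direction over the 4 groups, and its part in their spread was not tested. With pancreatic RNA as a block in the fit, the 3 calls in knockout mice and the 3 interaction calls held, while the Ang4 difference between treated genotypes was lost (limma adjusted p = 0.0565). For methotrexate in knockout mice Pla2g2a differed by 3.08 among arrays with pancreatic RNA and by 2.19 among those without. Between treated genotypes the differences with and without it were 0.35 and 1.13 for Lyz1, 3.17 and 4.43 for Pla2g2a, 2.03 and 3.42 for Mmp7, and -2.03 and -1.56 for Fzd5. They were 0.61 and 1.20 for Ang4 and 0.91 and 1.59 for Sox9. These compare 2 arrays with 1 among those with pancreatic RNA, and 1 with 2 among those without. Signs differed between the strata for members that had not passed. For methotrexate in knockout mice Lyz1 gave 0.10 and -0.29. Between untreated genotypes the differences with it (2 against 2 arrays) and without it (1 against 1) were -0.08 and 0.35 for Lyz1, -0.39 and 1.34 for Pla2g2a, and -0.49 and 1.71 for Mmp7. They were -0.43 and 1.25 for Itln1 and -0.05 and 0.43 for Fzd5.

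Profiles over the 12 arrays were compared between genes. Likeness was measured as the root mean square difference between mean-centred log2 values over the 12 arrays, for all 18820 genes. The genes nearest to Lyz1 were Defa24 (0.16), Abcg3 (0.28) and Slc35g2 (0.28). Those nearest to Ang4 were Itln1 (0.36), Defa39 (0.49) and Defa24 (0.52), and those nearest to Itln1 were Defa39 (0.34), Ang4 (0.36) and Lhfpl2 (0.41). Lyz1, Ang4 and Itln1 thus each had an alpha-defensin gene among their 3 nearest, which Pla2g2a and Mmp7 did not. The member nearest to Lyz1 was Itln1, only at rank 2464. Their difference of 0.466 was about as large as the deviation of Lyz1 from its own mean (0.474). Pla2g2a was nearest to Vip (0.37), Samd5 (0.41) and Mmp13 (0.45), with Mmp7 at rank 4, and Mmp7 was nearest to Mmp13 (0.39), Slc11a1 (0.48) and Pla2g7 (0.48), with Pla2g2a at rank 12. Mmp13 is a stromal collagenase and Vip a neuropeptide gene of enteric neurons. Fzd5 was nearest to Plcb3 (0.13), Esrra (0.15) and Erbb2 (0.16), and Sox9 to Usp31 (0.17), Zfp593 (0.20) and Ppan (0.23). For Fzd5 and Sox9 no other member came nearer than rank 4779. Nod2, whose own deviation was only 0.26, was nearest to the like flat genes Gpr50 (0.14), Eef1a2 (0.14) and Pram1 (0.15).

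**Figure D5:**
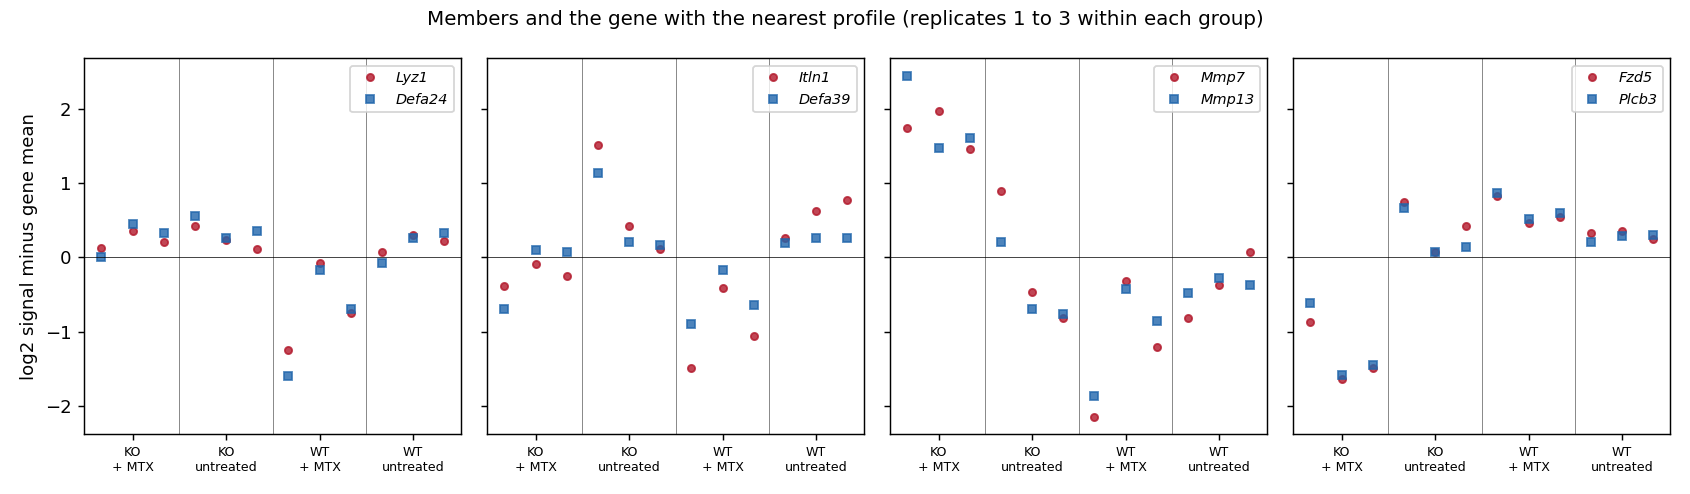
Log2 signal minus the gene's mean over 12 arrays (vertical axis) for 4 members and the gene nearest to each, with 1 point per array and replicates 1 to 3 from left to right within each group. Lyz1 with Defa24 and Itln1 with Defa39 dip in the treated wild type, Mmp7 with Mmp13 peak in the treated knockout, and Fzd5 with Plcb3 dip there.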

How the data were processed

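RNA of the proximal jejunum of 12 mice, 1 array each, was labelled with a whole-transcript kit and measured on Affymetrix arrays, per the labels' protocols. The deposited values are log2 signals of probe sets that the authors summarised by RMA, per the submitters' processing notes, with the version and genome build not given in the sources used here. They were analysed without further scaling. Of 35556 probe sets, 21218 had 1 symbol, 1881 several and 12457 none in the platform annotation, giving 18820 genes, each read by its brightest probe set.

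All 12 arrays entered 1 limma 3.58.1 fit in R 4.3.3 (lmFit and eBayes), with a mean per group and 8 residual degrees of freedom. P-values were adjusted over all genes by the Benjamini-Hochberg method and called under 0.05. The titles call the 3 mice of a group biological replicates. P-values rest on 1 residual variance per gene, estimated jointly from all groups and drawn by eBayes toward that of the other genes. They therefore do not measure the spread of any single group. For Lyz1 the SE was 0.23 in every pairwise contrast, while its SD was 0.59 in treated wild-type arrays and 0.11 to 0.15 in the other groups. The fit was tested on simulated data with independent noise per gene and array and with shifts in the treated knockout alone. Arrays that deviate together were not simulated, so this does not show how the p-values hold for such arrays.

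The members, the gene lists and the tests were chosen with earlier results of these data known. All members were reported, with up to 4 called genes of smallest p per list, sister genes of the members, and the 3 nearest profiles of each. The alpha-defensin probe sets and Tlr2 were added outside this rule. Alternatives were a log2 minimum of 1, leaving out genes under the 25th percentile of signal, the mean of the probe sets, all probe sets, quantile normalization, median centring, only the groups compared, blocks for replicate number and pancreatic RNA (acinar mean above 8), array weights, a robust trended variance, and leave-one-out fits. Promoter sequences are RefSeq's (GRCm38.p6). Arrays have no read depth, and their number limits the precision.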

Additional observations from a re-analysis of the deposited data

Results flagged for a closer look

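The methotrexate effect differed between the genotypes, by the interaction term of the limma fit, for 3 of the 8 members. It was 3.55 for Pla2g2a and 2.70 for Mmp7, both more positive in knockout mice, and -2.05 for Fzd5, more negative in knockout mice. All 3 kept their call in the 22 other settings run for the interaction. Enterocyte markers were lower, and macrophage and fibroblast markers higher, in the same treated knockout arrays, and their part in these results was not tested. Groups of 3 arrays are too small for a test of single outlying arrays.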

How the results depend on the processing

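The counts of members called moved by more than 1.5 times as follows. For methotrexate in knockout mice, 3 became 5 when dim genes were left out and 5 when arrays were centred on their median, with Itln1 and Sox9 added. For methotrexate in wild-type mice, 0 became 3 with array weights (Lyz1, Ang4 and Itln1). For the interaction, 3 became 6 with array weights. Leaving out 1 array gave 3 to 4 members for methotrexate in knockout mice, 0 to 1 in wild-type mice, 5 to 7 between treated genotypes, 0 to 0 between untreated genotypes and 3 to 4 for the interaction. The 1 in wild-type mice was Itln1, without replicate 1 of the untreated knockout. With the replicate number as a block the counts were 3, 0, 7, 0 and 3 in that order, with Nod2 added between treated genotypes (adjusted p = 0.0483), and no other call changed. Deviations of same-numbered arrays from their group means correlated at -0.49 to 0.67, over 0.1 in 15 of 18 pairs. Since this was not so in every pair and the labels name no shared batch, the numbers were not taken as pairs, although most arrays of 1 number deviated together. Replicate 1 of every group lacked pancreatic RNA (acinar mean 4.05 to 5.51) and replicate 2 of every group had it (11.6 to 12.3).

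Signs turned only for values that passed in neither setting. For methotrexate in knockout mice, Lyz1 was 0.12 with quantile normalization, 0.090 with array weights, and -0.099 to 0.054 when single arrays were left out, and Nod2 was -0.039 with array weights. For methotrexate in wild-type mice, Sox9 was -0.060 to 0.64 when single arrays were left out, the lowest without replicate 1 of the untreated wild type. Between untreated genotypes, array weights gave -0.059 for Lyz1, -0.075 for Mmp7, -0.17 for Itln1, -0.10 for Fzd5 and 0.12 for Nod2, and quantile normalization gave -0.018 for Lyz1. In that comparison, leaving out single arrays gave -0.022 to 0.13 for Lyz1, -0.39 to 0.52 for Pla2g2a, -0.27 to 0.59 for Mmp7, -0.28 to 0.42 for Itln1 and -0.0615 to 0.28 for Fzd5, each lowest without replicate 1 of the untreated knockout. The cause was not tested. Of 40 member values, 16 kept their sign and their side of the threshold in every setting. With 3 arrays per group, log2 changes as large as -1.61 (Ang4 in wild-type mice) went uncalled, and Nod2 is close to the array medians.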
